A study of Sus scrofa with 13 samples.

Results

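Loin muscle of Hampshire and Pietrain pigs was compared within the animals that had a high weight of loin. Pigs were taken into the comparison by their breed and loin weight labels, which gave 3 Hampshire pigs (8, 9 and 10) and 4 Pietrain pigs (1, 2, 6 and 7), or 7 of the 13 pigs of the series. The other 6 pigs, 3 Hampshire (1, 2 and 3) and 3 Pietrain (3, 5 and 8), had a low weight of loin, and were used only to show where the breed difference among the high loin weight pigs differed. All were females aged 6 months, longissimus lumborum was sampled right after slaughter, and libraries were made from 300 ng of total RNA with a RIN, a score of RNA integrity, above 7.5. The study itself asked which genes differ between heavy and light loins within each breed, so the contrast of the breeds was not its main question. The study states that the pigs had the same housing and feeding conditions and were kept and slaughtered at a pig test station. The labels name no farm of origin, slaughter day or sequencing run, and therefore breed and any such batch cannot be told apart. The labels count 4 Pietrain pigs with high loin weight where the methods of the study count 3, and all 4 were used.

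Both breeds are used as terminal sires for lean carcasses, and each is known for a muscle gene of large effect. In Hampshire it is PRKAG3, the muscle regulatory subunit of AMP-activated protein kinase (AMPK), in which a dominant allele raises muscle glycogen. In Pietrain it is RYR1, the calcium release channel of the sarcoplasmic reticulum, in which a recessive allele causes stress-induced malignant hyperthermia. Longissimus lumborum is a mostly fast, glycolytic muscle, in which contractile proteins, glycolytic enzymes and mitochondrial transcripts take a large share of the messenger RNA. The genotypes of these pigs are not given in the sources used here.

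The raw number of counted reads was 13530751 to 15950930 in the Hampshire pigs and 12833982 to 20134612 in the Pietrain pigs. The libraries were those of skeletal muscle, since ACTA1 (skeletal alpha-actin) alone took 7.69 to 11.2% of all counts in Hampshire and 3.06 to 7.02% in Pietrain. The 10 most counted genes took 32.9 to 37.7% and 26.4 to 29.8%. On the first principal component over 12831 genes, which held 45.1% of the variance, the Hampshire pigs with high loin weight lay between 67.3 and 95.0 and the Pietrain pigs with high loin weight between -56.4 and -6.04. Pietrain pig 7 was the pig nearest to Hampshire, and without it the number of differentially expressed genes rose from 5353 to 5693. In bulk muscle, fewer cells of a type and less RNA per cell cannot be told apart.

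**Figure D1:**
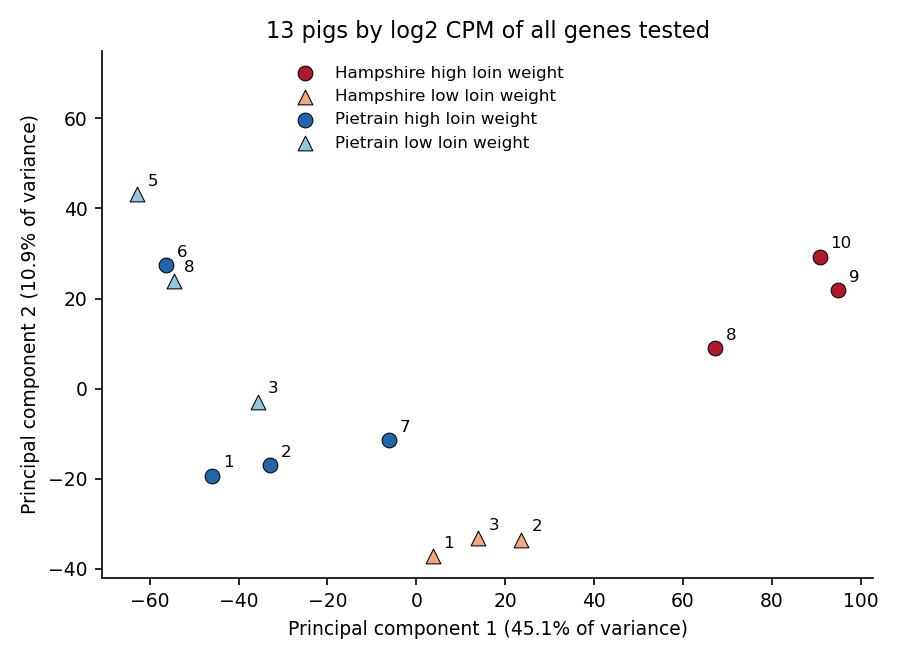
Position of the 13 pigs on the first 2 principal components of log2 CPM, with the share of variance on each axis; points are pigs with their numbers, coloured by breed and loin weight group. The 3 Hampshire pigs with high loin weight sit at 67.3 to 95.0 on component 1, to the right of the Hampshire pigs with low loin weight at 3.77 to 23.5, and all Pietrain pigs sit at -6.04 or lower.

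Values are given as CPM, the raw counts per 1000000 counts of the TMM-scaled library, and as mean ± SD over the 3 Hampshire and the 4 Pietrain pigs. SE is the standard error. Log2 fold changes are Hampshire against Pietrain, so a positive value is a higher level in Hampshire. A gene was called a differentially expressed gene (DEG) at an adjusted p-value under 0.05 in the quasi-likelihood test of edgeR, adjusted over all genes by the Benjamini-Hochberg method, and a fold change of at least 1.2, and all adjusted p-values are from that test. Of 12210 genes tested, 5353 were DEGs (43.8%). Of these, 2508 were higher in Hampshire (20.5% of the genes tested) and 2845 were lower (23.3%). A fold change of at least 2 was seen for 1687 of the higher and 1976 of the lower DEGs. Leaving out Hampshire pig 10 gave 3464 DEGs and leaving out Hampshire pig 9 gave 3543. The median log2 fold change over all genes was 0.02, with quartiles at -0.75 and 0.73. The breeds did not overlap in CPM for 6123 genes (50.1%), of which 5032 were DEGs. For each such gene the exact two-sided permutation test gives 0.0571, the smallest p-value that 3 against 4 pigs allow. These shares are the background against which the gene lists are given.

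Among DEGs with a gene symbol whose breeds did not overlap, the smallest adjusted p-value in Hampshire-low genes belonged to DEPTOR, the inhibitory subunit of the mTOR complexes (ENSSSCG00000005998, chromosome 4 from 19989287 to 20171545 of Sscrofa10.2). DEPTOR was at 10.3, 10.1 and 8.95 CPM in Hampshire pigs 8, 9 and 10 and at 60.8, 57.8, 66.5 and 57.8 CPM in Pietrain pigs 1, 2, 6 and 7. The highest Hampshire pig thus lay far below the lowest Pietrain pig, and the log2 fold change was -2.65 (SE 0.18, adjusted p = 7.22e-05). CACNA2D1, an auxiliary subunit of voltage-gated calcium channels (ENSSSCG00000015402, chromosome 9 from 108068516 to 108551541), was at 21.5, 15.1 and 13.9 CPM in Hampshire and 373, 208, 330.3 and 168 CPM in Pietrain, a log2 fold change of -4.01 (SE 0.34, adjusted p = 0.00021). The Pietrain pigs fell into a higher pair (1 and 6) and a lower pair (2 and 7), all above every Hampshire pig. CMYA5, a costameric protein of muscle also known as myospryn, was at 637, 488 and 566 CPM against 3344, 3559, 3340 and 2811 CPM (log2 fold change -2.54, SE 0.20, adjusted p = 0.00021). SYNM, the intermediate filament protein synemin, was at 74.5 ± 14.1 against 577 ± 120.3 CPM (log2 fold change -2.97, adjusted p = 0.00021). PRKAB2, the AMPK beta subunit most used in muscle, was at 12.1 ± 1.81 against 78.0 ± 13.6 CPM (log2 fold change -2.71, adjusted p = 0.00021). The other genes of this set lower in Hampshire were RHOQ, a small GTPase linked to insulin-stimulated glucose transport, at -2.54 (adjusted p = 0.00021), the ankyrin repeat protein gene ANKRD12 at -2.86 (adjusted p = 0.00021) and AP4E1, a subunit of adaptor complex 4, at -3.05 (adjusted p = 0.00021) on the log2 scale.

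In the other direction, SGCA, alpha-sarcoglycan of the dystrophin complex (ENSSSCG00000017583, chromosome 12 from 26395260 to 26407113), was at 218, 238 and 247 CPM in the Hampshire pigs and at 56.8, 63.8, 44.1 and 56.3 CPM in the Pietrain pigs. Its log2 fold change was 2.07 (SE 0.19, adjusted p = 0.00021), and the lowest Hampshire pig had over 3 times the CPM of the highest Pietrain pig. NOL3, an apoptosis repressor of muscle and heart, was at 146 ± 26.6 against 31.5 ± 4.32 CPM (log2 fold change 2.20, SE 0.20, adjusted p = 0.00021). RNASEK, ribonuclease kappa, was at 46.7 ± 3.83 against 11.5 ± 1.33 CPM (log2 fold change 2.00, SE 0.18, adjusted p = 0.00021), with a narrow spread in both breeds. SELENOM, a selenoprotein of the endoplasmic reticulum, had a log2 fold change of 2.92 (adjusted p = 0.00021), IMPA2, an inositol monophosphatase, one of 2.08 (adjusted p = 0.000331), and SELENBP1, a selenium-binding protein, one of 1.76 (adjusted p = 0.000347). SULT1A3, a sulfotransferase, was at 23.1 ± 3.88 against 5.20 ± 0.907 CPM with a log2 fold change of 2.14 (adjusted p = 0.000315). It belongs to a family of near-identical copies, so its reads may have been split.

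**Figure D2:**
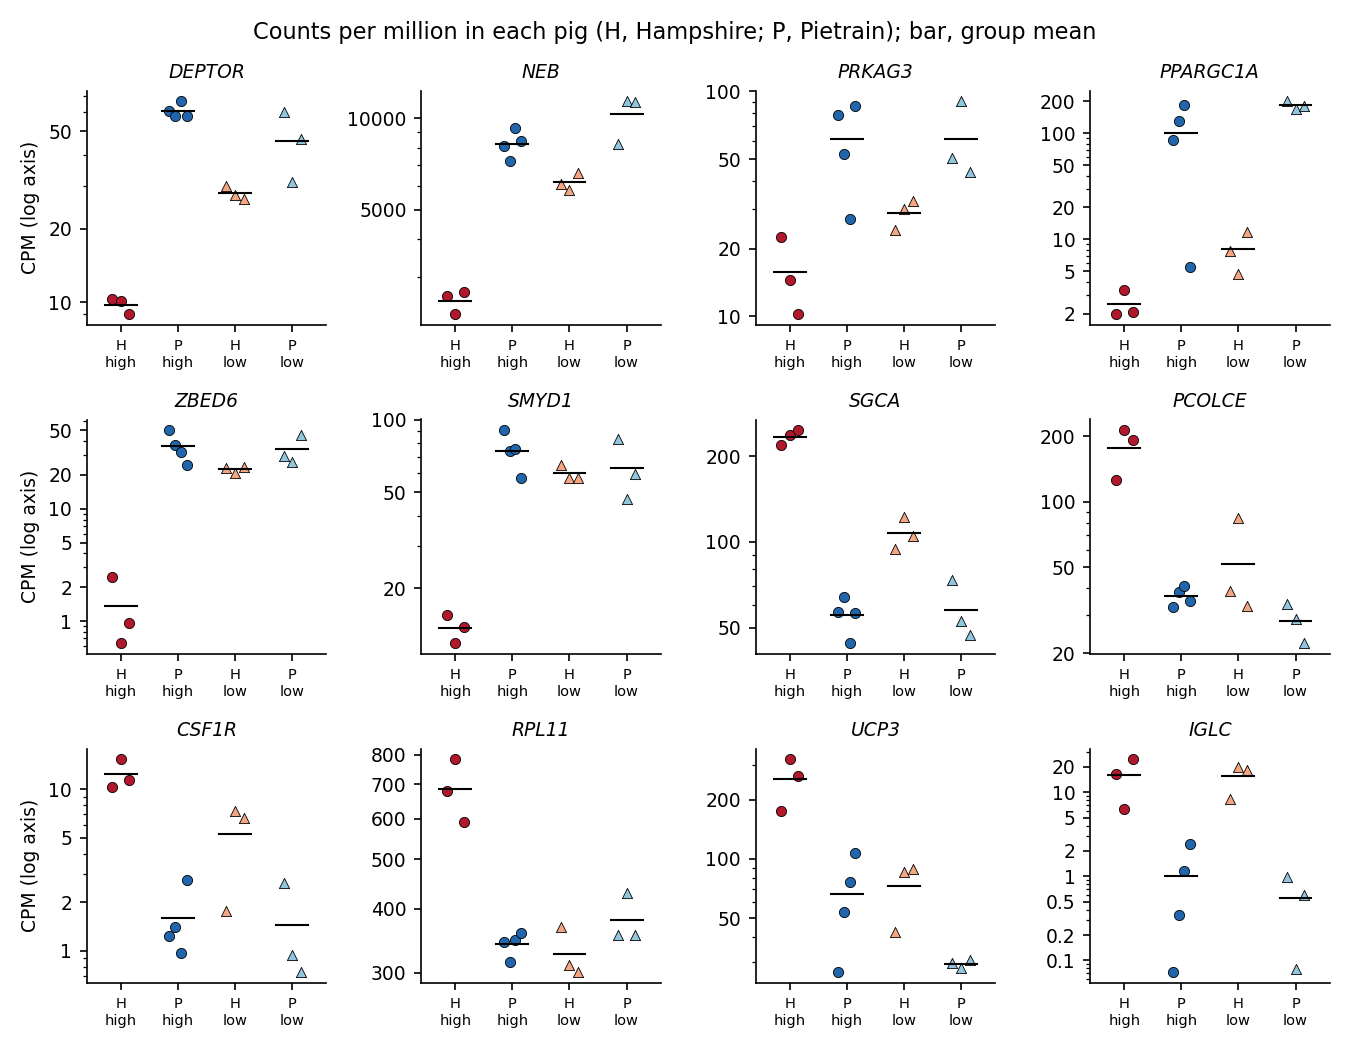
CPM of 12 genes in each of the 13 pigs on log axes, with points for pigs and a bar for the group mean; H is Hampshire and P is Pietrain, circles are high and triangles low loin weight. All 12 genes separate the 3 Hampshire from the 4 Pietrain pigs with high loin weight. Among the low loin weight pigs the breeds overlap for SMYD1, RPL11, PCOLCE and CSF1R.

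The genes with the largest fold changes, among DEGs with a symbol, no overlap of the breeds and a mean of at least 5 CPM, were led on the lower side by PPARGC1A, the coactivator PGC-1alpha that drives mitochondrial biogenesis and oxidative fibre genes. PPARGC1A was at 1.98, 3.36 and 2.05 CPM in Hampshire and at 86.7, 130.0, 183 and 5.55 CPM in Pietrain pigs 1, 2, 6 and 7. Pietrain pig 7 was close to the Hampshire pigs while the other Pietrain pigs were far above, and the log2 fold change was -5.37 (SE 0.97, adjusted p = 0.0025). ZBED6, a domesticated transposase that represses IGF2 in pig muscle (ENSSSCG00000015274, chromosome 9 from 70869462 to 70872407), was at 2.45, 0.636 and 0.959 CPM against 50.1, 36.9, 32.1 and 24.4 CPM, a log2 fold change of -4.71 (SE 0.45, adjusted p = 0.000249). Every Pietrain pig had at least 24.4 CPM and no Hampshire pig more than 2.45 CPM. Neurolysin (NLN, a peptidase) at -4.18 (adjusted p = 0.00626), the crystallin-domain gene CRYBG3 at -3.99 (adjusted p = 0.00093) and XIAP, an inhibitor of caspases, at -3.51 (adjusted p = 0.000331) followed.

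On the higher side C14H10orf116, an open reading frame with no established name in the table, had a log2 fold change of 4.44 (SE 0.87, adjusted p = 0.00365). IGLC, the constant region of the immunoglobulin lambda light chain, was at 16.6, 6.36 and 24.8 CPM in Hampshire and 0.0724, 0.350, 1.17 and 2.40 CPM in Pietrain, a log2 fold change of 3.91 (SE 0.74, adjusted p = 0.00306). Reads of this gene can be shared among copies of the locus. APOA1, an apolipoprotein of high-density lipoprotein, was at 23.6 ± 11.0 against 1.85 ± 1.38 CPM (log2 fold change 3.66, adjusted p = 0.000962), and PCSK1N, an inhibitor of proprotein convertase, was at 13.6 ± 4.42 against 1.36 ± 0.708 CPM (log2 fold change 3.28, adjusted p = 0.000827). A pair of identifiers of a signal recognition particle RNA, which held identical counts in every pig and are therefore 1 measurement although both entered the fit, had a log2 fold change of 3.85 (adjusted p = 0.00155).

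Connective tissue genes were higher in the Hampshire pigs with high loin weight. Of 30 extracellular matrix genes tested, 17 were higher and 1 was lower, with a median log2 fold change of 1.32 against 0.02 over all genes. PCOLCE, which enhances the cleavage of procollagen (ENSSSCG00000027466, chromosome 3 from 7918398 to 7923583), was at 126, 213 and 192 CPM in Hampshire and 32.6, 38.5, 40.8 and 34.8 CPM in Pietrain. The lowest Hampshire pig had over 3 times the level of the highest Pietrain pig, and the log2 fold change was 2.26 (SE 0.21, adjusted p = 0.000247). BGN, the small proteoglycan biglycan, was at 67.5 ± 27.4 against 15.4 ± 2.59 CPM (log2 fold change 2.13, adjusted p = 0.000773). TIMP3, an inhibitor of matrix metalloproteinases, was the only lower one, at 2.61 ± 0.799 against 6.28 ± 3.26 CPM (log2 fold change -1.28, adjusted p = 0.0462). Its breeds overlapped, and its adjusted p was above 0.05, up to 0.145, in 6 of the 7 fits that left out 1 pig. The summed CPM of the list was 2929 to 7458 in Hampshire and 1289 to 3093 in Pietrain, so the sums overlapped. Without Hampshire pig 9 only 9 of the list's genes were DEGs, and without Hampshire pig 10 there were 11.

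Of the genes measured by real-time PCR in the study, MGP, which inhibits calcification of matrix, was at 359 ± 248 CPM in Hampshire and 101 ± 19.2 CPM in Pietrain (log2 fold change 1.83, adjusted p = 0.00431). COL6A1, a chain of collagen VI that shares sequence with COL6A2, was at 32.1 ± 14.6 against 12.6 ± 4.73 CPM (log2 fold change 1.34, adjusted p = 0.0145). Its breeds overlapped, and the adjusted p was 0.0786 without Hampshire pig 10 and 0.0506 without pig 9. TBX2, a transcription factor, was at 5.26 ± 0.482 against 1.93 ± 0.557 CPM (log2 fold change 1.42, adjusted p = 0.00605). XPO1, the nuclear export receptor, was lower in Hampshire, at 45.1 ± 14.5 against 105 ± 17.3 CPM (log2 fold change -1.22, adjusted p = 0.00346). BBS2, of the ciliary BBSome, did not pass the test, at 8.70 ± 3.58 against 5.27 ± 0.964 CPM (log2 fold change 0.72, adjusted p = 0.0789), but passed without Hampshire pig 9 (adjusted p = 0.0387). Of the PCR reference genes, RPL27, a ribosomal protein, was a DEG with a log2 fold change of 0.76 (adjusted p = 0.00942), and OAZ1, which controls polyamine synthesis, was not (0.42, adjusted p = 0.0967).

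Immune and vascular markers were also higher in Hampshire. All 12 macrophage and antigen presentation genes tested had a log2 fold change above 0, 9 of them passed the test, and the median was 1.82. CSF1R, the receptor that macrophages need to survive, was at 10.3, 15.4 and 11.4 CPM in Hampshire and 1.23, 1.40, 0.974 and 2.75 CPM in Pietrain (log2 fold change 2.92, SE 0.37, adjusted p = 0.000595). C1QC, a chain of complement C1q made mainly by macrophages, was at 77.6 ± 11.9 against 14.6 ± 6.70 CPM (log2 fold change 2.39, adjusted p = 0.00133). The summed CPM of the list ran from 1072 to 1167 in Hampshire and from 218.7 to 549.3 in Pietrain, with no overlap. Of 14 complement genes 10 were higher, among them SERPING1, the C1 inhibitor (235 ± 76.9 against 61.4 ± 7.88 CPM, log2 fold change 1.93, adjusted p = 0.000542) and C1R, a protease of the first component (1.70, adjusted p = 0.000403), and 1 was lower. Of 9 T cell and lymphocyte genes 44.4% were called, near the 43.8% of all genes tested. There were 4 higher and 0 lower (median 1.25), including CD79A of the B cell receptor at 2.10 ± 0.0883 against 0.762 ± 0.0987 CPM. Only 1 of them was a DEG without Hampshire pig 10 and 2 without pig 8.

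Of 10 endothelial genes 5 were higher and 0 lower (median 0.72), with ENG, endoglin, at 1.49 (adjusted p = 0.00159) and EGFL7, a secreted vascular factor, at 1.52 (adjusted p = 0.00281). Of 8 pericyte and smooth muscle genes 4 were higher and 0 lower (median 0.86), with ACTA2, smooth muscle actin, at 1.61 (adjusted p = 0.00117) and TAGLN, transgelin, at 1.94 (adjusted p = 0.000369), and 2 were DEGs without Hampshire pig 9. The share called was 50% in the endothelial and in the pericyte list, against 43.8% of all genes tested. Of 15 adipocyte and lipid storage genes 33.3% were called, below the 43.8% of all genes tested. There were 5 higher and 0 lower (median 0.82). They included CFD, the adipocyte protease adipsin, at 203 ± 52.5 against 53.0 ± 20.7 CPM (log2 fold change 1.92, adjusted p = 0.0014), and PNPLA2, the triglyceride lipase ATGL, at 159 ± 30.0 against 37.7 ± 15.5 CPM (log2 fold change 2.06, adjusted p = 0.00115). The summed adipocyte list was 457.0 to 731.2 CPM in Hampshire and 163.9 to 464.2 CPM in Pietrain, with a small overlap, and without Pietrain pig 7 there were 8 DEGs among these genes. Without Hampshire pig 9 the median of the list was 0.29. None of 6 Schwann and nerve genes or of the 2 erythroid genes tested was a DEG. The part of the amount of these other cell types in the differences of muscle genes was not tested.

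Translation and mitochondrial genes formed a second block that was higher in Hampshire. Of 56 cytosolic ribosomal protein genes, 46 were higher and 0 were lower, all 56 had a log2 fold change above 0, and the median was 0.95. RPL11 was at 679.5, 784 and 592 CPM in Hampshire and 344, 315, 348 and 359 CPM in Pietrain (log2 fold change 0.99, SE 0.17, adjusted p = 0.00207), RPL35 had a log2 fold change of 1.46 (adjusted p = 0.00072) and RPL3 one of 1.33 (adjusted p = 0.000756). All are proteins of the large subunit, and ribosomal protein genes have many pseudogenes to which reads can also align. The summed CPM of the list was 32110 to 44950 in Hampshire and 17620 to 22180 in Pietrain. Of 32 mitochondrial ribosomal proteins 20 were higher and 0 lower (median 0.73), with MRPS7 at 1.47 (adjusted p = 0.000441) and MRPL11 at 1.27 (adjusted p = 0.00144). Of 33 nuclear oxidative phosphorylation genes 17 were higher and 0 lower (median 0.54), such as the complex I subunits NDUFA2 (1.26, adjusted p = 0.00105) and NDUFB10 (1.11, adjusted p = 0.00227). Without Hampshire pig 9, the number of DEGs was 11 for the mitochondrial ribosomal proteins and 9 for oxidative phosphorylation, and without Pietrain pig 1 it was 11 for the latter. Mitochondrially encoded genes did not move as a block, with 2 of 13 higher and 2 lower, and there were 1 or 2 DEGs without Hampshire pig 8, 9 or 10 or Pietrain pig 1, 2 or 6.

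The groups that were lower in Hampshire were nuclear and structural. Of 24 histone methyltransferase and chromatin genes 19 were lower and 0 higher, with a median of -1.17. SMYD1, a muscle-specific methyltransferase needed for sarcomere assembly, was at 15.5, 11.8 and 13.8 CPM in Hampshire and 90.7, 74.1, 75.8 and 57.5 CPM in Pietrain (log2 fold change -2.45, SE 0.22, adjusted p = 0.00021). Of 25 nuclear transport genes 20 were lower and 0 higher (median -0.96), with XPOT, the transfer RNA exporter, at -1.98 (adjusted p = 0.000495) and IPO7, an importin, at -1.56 (adjusted p = 0.000626). Of 27 splicing factors 15 were lower and 0 higher (median -0.76), with MBNL2, a muscleblind splicing regulator, at 3.41 ± 0.893 against 12.7 ± 0.870 CPM (log2 fold change -1.92, adjusted p = 0.000618) and HNRNPH1, a heterogeneous nuclear ribonucleoprotein, at 67.9 ± 14.8 against 172 ± 13.9 CPM (-1.35, adjusted p = 0.000869).

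Of 15 sarcomere scaffold and Z-disc genes 9 were lower and 0 higher (median -1.01). NEB, nebulin, which spans the thin filament, was at 2599, 2274 and 2686 CPM in Hampshire and 8119, 7220, 9296 and 8386 CPM in Pietrain (log2 fold change -1.72, SE 0.19, adjusted p = 0.000369), and MYPN, myopalladin of the Z-disc, was at 184 ± 12.3 against 457 ± 94.8 CPM (log2 fold change -1.33, adjusted p = 0.0017). Of other muscle genes, ACTA1 was higher at 1.21 (adjusted p = 0.0156), CKM, muscle creatine kinase, at 1.34 (adjusted p = 0.00371) and TNNC2, fast troponin C, at 0.85 (adjusted p = 0.025) on the log2 scale. TNNC2 was the only DEG of 10 fast fibre genes. Its adjusted p rose to 0.0968 without Hampshire pig 9, 0.0629 without Pietrain pig 2 and 0.0556 without pig 6, and that of ACTA1 to 0.065 without Hampshire pig 9. None of 7 slow fibre genes passed the test although their median was 1.34. Pietrain pigs spread widely, with a summed level of 2170 to 13800 CPM against 13040 to 20200 CPM in Hampshire. Without Pietrain pig 2 or pig 7, 2 of them passed, and without Hampshire pig 8, 1 did. In excitation-contraction coupling 3 of 17 genes were higher and 5 lower, so 47.1% were called, near the 43.8% of all genes tested. TRDN, triadin of the calcium release complex, was at -2.35 (adjusted p = 0.000247), while S100A1, a calcium sensor, was at 2.20 (adjusted p = 0.00325) and ORAI1, the pore of store-operated calcium entry, at 1.42 (adjusted p = 0.006).

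**Figure D3:**
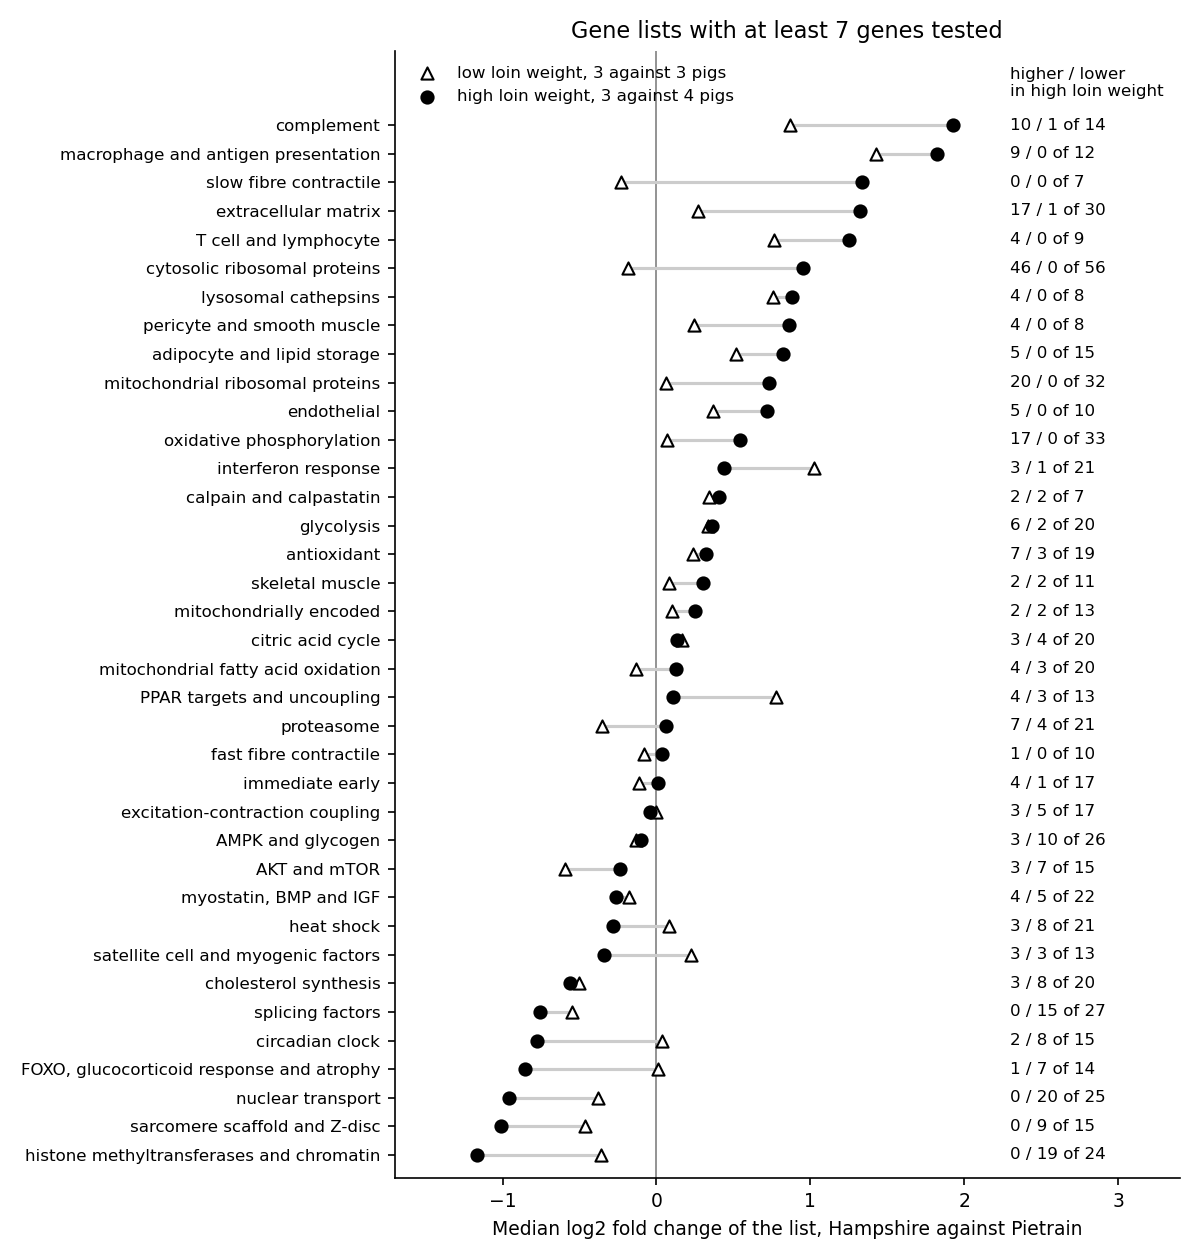
Median log2 fold change, Hampshire against Pietrain, of each gene list with at least 7 genes tested, with filled circles for high and open triangles for low loin weight; the numbers on the right are the DEGs higher and lower in the high loin weight comparison. The complement and macrophage lists lie furthest right at 1.93 and 1.82, the chromatin list furthest left at -1.17, and the cytosolic ribosomal proteins lie at 0.95 in high and -0.18 in low loin weight.

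Among genes known for effects on pig muscle, PRKAG3 (ENSSSCG00000016200) was at 22.5, 14.4 and 10.2 CPM in the Hampshire pigs and at 78.7, 52.8, 27.0 and 86.2 CPM in the Pietrain pigs. Pietrain pig 6 was close to Hampshire pig 8, without overlap, and the log2 fold change was -1.98 (SE 0.42, adjusted p = 0.00483). RYR1 was at 2016, 1351 and 2354 CPM in Hampshire and 4632, 3462, 3583 and 4199 CPM in Pietrain, again without overlap (log2 fold change -1.07, SE 0.24, adjusted p = 0.00618). MSTN, myostatin, the inhibitor of muscle growth, was at 9.67, 7.00 and 12.6 CPM in Hampshire and 38.8, 16.1, 22.8 and 26.4 CPM in Pietrain (log2 fold change -1.42, SE 0.32, adjusted p = 0.00677). CAST, calpastatin, which inhibits the calpains that tenderize meat, was at 30.4 ± 6.12 against 70.4 ± 10.5 CPM (log2 fold change -1.23, adjusted p = 0.00189). UCP3, the uncoupling protein of skeletal muscle mitochondria, was at 176, 321 and 264 CPM in Hampshire and 26.6, 53.4, 76.3 and 107 CPM in Pietrain (log2 fold change 1.93, SE 0.40, adjusted p = 0.00472). The uncoupling protein and the kinase subunit therefore moved in opposite directions, each without overlap between the breeds.

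Several genes of this kind did not pass the test. PDK4, which blocks pyruvate dehydrogenase in fasting, was at 36.7, 25.7 and 212 CPM in Hampshire and 51.5, 324, 298 and 750.5 CPM in Pietrain, so that it varied more within each breed than most genes (log2 fold change -1.97, SE 0.89, adjusted p = 0.0957). It passed without Hampshire pig 10 (adjusted p = 0.0225) and without Pietrain pig 1 (0.039). GYS1, muscle glycogen synthase, was at 496 ± 88.9 against 489.9 ± 149.7 CPM (log2 fold change -0.00, SE 0.26, adjusted p = 0.992), PYGM, muscle glycogen phosphorylase, at 14980 ± 2768 against 12010 ± 3041 CPM (0.30, adjusted p = 0.339) and PHKG1, a phosphorylase kinase subunit, at 326 ± 18.6 against 232 ± 89.0 CPM (0.47, adjusted p = 0.192, or 0.0256 without Pietrain pig 7). The identifier called MYH8 in the name table and MYH1 in the table of the authors had a log2 fold change of -0.65 (adjusted p = 0.153), and the one called MYH6 and MYH7 one of 0.64 (adjusted p = 0.543). Myosin heavy chain genes are near-identical paralogs in clusters, so the reads of single members are uncertain. IGF2, MYH2, MYH4, ADIPOQ and FABP4 were matched to no identifier by symbol and have no value here.

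Within energy metabolism, more AMPK and glycogen genes were called lower than higher. Of 26 tested 10 were lower and 3 higher, or 50% called against 43.8% of all genes tested. The median log2 fold change was only -0.10, and 0.048 with the length trend removed. PRKAB1, the other AMPK beta subunit, was higher (12.0 ± 1.73 against 7.02 ± 1.06 CPM, log2 fold change 0.76, adjusted p = 0.0185), opposite to PRKAB2, but its adjusted p was 0.077 without Hampshire pig 9 and 0.0543 without Pietrain pig 1. Without Hampshire pig 9 there were 8 DEGs in this list. Of 20 glycolysis genes 6 were higher and 2 lower (median 0.36), so 40% were called, near the 43.8% of all genes tested. LDHA, the muscle lactate dehydrogenase, was lower at 8779, 11780 and 7726 CPM against 15510, 16210, 20640 and 15960 CPM (log2 fold change -0.87, SE 0.22, adjusted p = 0.0106), with an adjusted p of 0.0511 without Hampshire pig 10. PGAM2, muscle phosphoglycerate mutase, was higher at 1.39 (adjusted p = 0.00599), and SLC16A3, the lactate exporter MCT4, at 1.67 (adjusted p = 0.00443).

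Of 20 citric acid cycle genes 35% were called, and so were 35% of 20 fatty acid oxidation genes, below the 43.8% of all genes tested. Of the citric acid cycle genes 3 were higher, such as IDH2, the mitochondrial NADP-dependent isocitrate dehydrogenase (1.22, adjusted p = 0.00845), and 4 lower. There were 2 DEGs in all without Hampshire pig 9, 3 without Pietrain pig 1 and 4 without Hampshire pig 10 or Pietrain pig 2. Of 20 fatty acid oxidation genes 4 were higher and 3 lower, with ECHS1, the short-chain enoyl-CoA hydratase, at 0.85 (adjusted p = 0.00861) and ACADM, the medium-chain dehydrogenase, lower at 168 ± 17.1 against 332 ± 72.2 CPM (adjusted p = 0.00504), with 3 DEGs without Hampshire pig 10 and 4 without pig 9. In the list of PPAR targets and uncoupling, 4 of 13 genes were higher and 3 lower. UCP2 was at 2.57 (adjusted p = 0.00155), while PPARA, the fatty acid-sensing receptor, was at -2.47 (adjusted p = 0.00342). Cholesterol synthesis leaned lower, with 8 of 20 genes lower and 3 higher (median -0.56), HMGCS1, an early enzyme of the pathway, at -1.43 (adjusted p = 0.00156) and NSDHL, a late one, at 1.12 (adjusted p = 0.00668). There were 6 DEGs in this list without Hampshire pig 10 and 7 without Hampshire pig 9 or Pietrain pig 2. In the circadian clock list 8 of 15 genes were lower and 2 higher (median -0.78). CLOCK, the activating clock transcription factor, was at 0.503 ± 0.270 against 4.55 ± 1.07 CPM (log2 fold change -3.19, adjusted p = 0.000962), and RORA, a nuclear receptor of the clock, was at -1.87 (adjusted p = 0.000658). Without Hampshire pig 10, 6 of the clock genes were DEGs. The hour of slaughter is not given in the sources used here.

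Growth signalling moved in both directions. Of 15 AKT and mTOR genes 7 were lower and 3 higher. Besides DEPTOR, PIK3CA, the catalytic subunit of PI3 kinase, was lower (-1.89, adjusted p = 0.000369), and EIF4EBP1, a repressor of cap-dependent translation, was higher at 107, 176 and 121 CPM against 46.2, 39.8, 30.7 and 37.6 CPM (log2 fold change 1.79, SE 0.23, adjusted p = 0.000591). Of 22 myostatin, BMP and IGF genes 5 were lower and 4 higher, so 40.9% were called, near the 43.8% of all genes tested. The BMP receptors BMPR1A (-1.73, adjusted p = 0.00072) and BMPR2 (-1.50, adjusted p = 0.000562) were lower, and the ligand BMP4 (1.64, adjusted p = 0.00306) and the IGF-binding protein IGFBP6 (2.17, adjusted p = 0.000492) were higher. Of 13 satellite cell and myogenic factor genes 3 were higher and 3 lower (median -0.34), so 46.2% were called, near the 43.8% of all genes tested. Among them MYOD1, a master regulator of the myogenic lineage, was higher (33.4 ± 15.2 against 10.2 ± 5.26 CPM, log2 fold change 1.71, adjusted p = 0.00672). MEF2C (-1.75, adjusted p = 0.00574) and MEF2A (-1.11, adjusted p = 0.00606), partners of the myogenic factors, were lower.

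For protein breakdown, 7 of 14 FOXO, glucocorticoid and atrophy genes were lower and 1 was higher (median -0.85). FBXO40, a muscle ubiquitin ligase subunit, was at 45.9 ± 19.8 against 282 ± 65.6 CPM (log2 fold change -2.64, adjusted p = 0.000502), and CEBPD, a glucocorticoid-responsive transcription factor, was the higher one (1.31, adjusted p = 0.0098, or 0.0523 without Hampshire pig 10). There were 3 DEGs in this list without Hampshire pig 10 and 4 without pig 9. Of 8 lysosomal cathepsins 4 were higher and 0 lower (median 0.88, or 0.56 without Hampshire pig 9), with CTSB at 1.23 (adjusted p = 0.00314) and CTSZ at 1.65 (adjusted p = 0.00357). Of 21 proteasome genes 7 were higher, such as the core subunit PSMA7 (1.17, adjusted p = 0.00357), and 4 lower, such as PSMD1 of the regulatory particle (-1.25, adjusted p = 0.00116), with 7 DEGs in all without Hampshire pig 9. CAPNS1, the small regulatory calpain subunit, was higher (149 ± 3.78 against 77.0 ± 7.41 CPM, log2 fold change 0.94, adjusted p = 0.00205), and 2 of 7 calpain and calpastatin genes were higher and 2 lower.

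In the stress lists the share called was 52.4% for heat shock, 52.6% for antioxidant, 29.4% for immediate early and 19% for interferon response genes. Over all genes tested it was 43.8%. Of 21 heat shock genes 8 were lower and 3 higher (median -0.28). HSPH1, a large heat shock protein, was at -1.71 (adjusted p = 0.00204) and HSPA4, a related one, at -1.17 (adjusted p = 0.00186), and there were 7 DEGs without Hampshire pig 8. The median was -0.020 without Hampshire pig 10 and -0.45 without pig 9. Of 19 antioxidant genes 7 were higher, such as the plasma peroxidase GPX3 (1.85, adjusted p = 0.00235), and 3 lower, such as GCLM and GCLC, the subunits of the ligase that starts glutathione synthesis (-2.01, adjusted p = 0.00123 and -1.25, adjusted p = 0.00272). Of 17 immediate early genes 4 were higher and 1 lower, with DUSP1, a phosphatase of MAP kinases, at 1.82 (adjusted p = 0.0122) but at an adjusted p of 0.0645 without Hampshire pig 9, and 3 DEGs were found without Hampshire pig 8 or 9. Of 21 interferon response genes 3 were higher, such as the regulator IRF7 (1.86, adjusted p = 0.00306), and 1 lower, but there were 10 DEGs without Pietrain pig 6 and 2 without Hampshire pig 9.

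The breed difference changed with the length of the gene. Length was the span on the chromosome in the table of the authors, known for 9972 of the genes tested (81.7%). Across these genes, which are not independent replicates, the log2 fold change fell with length, at a Spearman correlation of -0.39. The genes were divided by length into 5 classes of equal size. In the shortest class (67 to 6166 bp) 43.6% of the genes were higher in Hampshire and 8.26% lower, with a median log2 fold change of 0.65. In the longest class (56302 bp and more) 7.77% were higher and 41.9% lower, with a median of -0.53. Within single pigs of high loin weight, the deviation from the mean of all 13 pigs correlated with length at -0.41 to -0.34 in Hampshire. This correlation was 0.26 to 0.34 in Pietrain pigs 1, 2 and 6, but -0.04 in Pietrain pig 7. In the low loin weight pigs it was -0.09 to 0.03 in Hampshire and 0.21 to 0.29 in Pietrain. RNA integrity of the single pigs is not given in the sources used here, and the part of RNA quality, library preparation and breed in this trend was not tested.

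After a smooth trend of the counts with length was removed, 4268 of the 9972 genes were DEGs (42.8%, against 46.5% of the same genes before), 2079 higher and 2189 lower. Of the 4640 DEGs with a known length, 3371 were DEGs with the same sign after removal. Lists of short and of long genes both moved. For the cytosolic ribosomal proteins the median fell from 0.95 to 0.35 and 20 of 56 were higher, with 0 lower. For the mitochondrial ribosomal proteins the median was 0.41 with 13 higher, and for oxidative phosphorylation 0.31 with 14 higher and 1 lower. The sarcomere scaffold median moved from -1.01 to -0.42, with 4 of 9 genes lower, and the nuclear transport median from -0.96 to -0.57, with 12 of 25 genes lower and 2 higher. The complement median was 1.46 with 11 of 12 genes higher, the macrophage median 1.42 with 8 of 12 higher, and the chromatin median -0.87 with 14 of 23 lower. The extracellular matrix median was 1.44 with 19 of 26 genes higher and 1 lower, and the splicing factor median -0.83 with 16 of 25 lower. Of the immediate early genes 0 were higher and 3 lower after removal, of the heat shock genes 1 and 10, and of the excitation-contraction coupling genes 3 and 2. For fatty acid oxidation 7 genes were then higher and 1 lower, for the citric acid cycle 4 and 2, and for the antioxidant genes 6 and 5. Among the single genes, the calls of RYR1 (log2 fold change -0.56, adjusted p = 0.0742), RPL11 (adjusted p = 0.0516), RPL27 (0.466), TNNC2 (0.319), ACTA1 (0.0806) and DUSP1 (0.0734) were lost, and BBS2 passed (0.029).

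**Figure D4:**
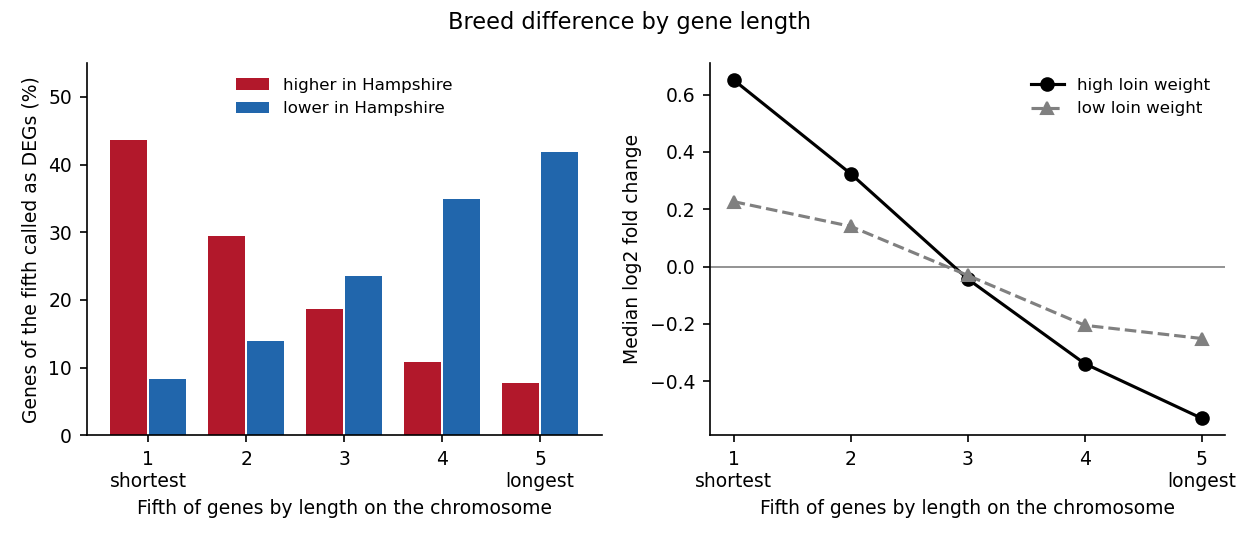
Left, percentage of the genes in each of 5 classes of gene length that were DEGs higher (red) or lower (blue) in Hampshire with high loin weight; right, median log2 fold change per class in the high (circles) and low (triangles) loin weight comparisons. The share higher falls from 43.6% to 7.77% and the share lower rises from 8.26% to 41.9% from the shortest to the longest class, and the median falls from 0.65 to -0.53.

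The same contrast was then made in the 3 Hampshire and 3 Pietrain pigs with low loin weight, which share no animal with the comparison above. There 2830 of 12023 genes were DEGs (23.5%). Of the 5212 DEGs of the high loin weight pigs that were also tested in the low ones, 4622 had the same sign (88.7%), against 76.5% of all 11756 genes tested in both. There were 1831 DEGs of both comparisons, 35.1% of those from the high and 65.2% of those from the low loin weight pigs, and 1813 of them had the same sign. Over all genes tested in both, the median size of the log2 fold change was 0.73 in high and 0.51 in low loin weight. The low loin weight comparison depended on single pigs, with 195 DEGs without Hampshire pig 3, 309 without Pietrain pig 8, 409 without Hampshire pig 2 and 1113 without Pietrain pig 5.

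Macrophage markers were among the differences present in both sets of pigs, with 7 of 12 genes higher and 0 lower in low loin weight (median 1.43). Splicing factors were too, with 13 of 27 lower and 0 higher (median -0.55). Several other lists differed less there. Of 28 extracellular matrix genes 2 were higher (median 0.27), and of 33 oxidative phosphorylation genes 4 were higher and 1 lower (median 0.07). None of 10 endothelial or 8 pericyte genes was a DEG. For the FOXO and clock lists the medians were 0.01 and 0.04. IGLC was at 15.7 ± 6.41 CPM in Hampshire and 0.556 ± 0.455 CPM in Pietrain in the low loin weight pigs (log2 fold change 4.81, adjusted p = 0.00639), close to its levels in the high ones. PPARGC1A was at 8.15 ± 3.55 CPM in Hampshire and 184 ± 15.5 CPM in Pietrain (log2 fold change -4.50, adjusted p = 0.000807), and here all 3 Pietrain pigs were high. MYOD1 had a log2 fold change of 1.85 (adjusted p = 0.00702) in low loin weight, S100A1 one of 2.48 (adjusted p = 0.0069), LDHA one of -0.91 (adjusted p = 0.0177) and SLC16A3 one of 2.12 (adjusted p = 0.0111). PRKAG3 (-1.08, adjusted p = 0.0278), MSTN (-1.32, adjusted p = 0.0393) and UCP3 (1.32, adjusted p = 0.0167) were DEGs there too, while RYR1 was not (-0.27, adjusted p = 0.317).

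A test of whether the breed difference itself differed with loin weight, in 1 fit over all 13 pigs, passed for 757 of 12831 genes (5.9%) at an adjusted p under 0.05. Of these, 693 were DEGs of the high loin weight comparison. Their number was 379 without Hampshire low loin weight pig 3, 424 without Hampshire high loin weight pig 9, and 487 to 494 without Hampshire pig 10, Hampshire low loin weight pig 2, or Pietrain low loin weight pig 5 or 8. The difference was above 0 for 215 genes and below 0 for 542. Of the 746 tested in both comparisons, 429 had the same sign with a larger fold change in high loin weight, 3 had the same sign with a larger one in low, and 314 had opposite signs. Cytosolic ribosomal proteins made up a block, since 43 of 56 passed this test, all with a higher breed difference in high loin weight. In low loin weight 0 of them were higher and 4 lower, with a median of -0.18. The median length of these genes was 3918 bp. With the length trend removed 483 genes passed this test, but the number of ribosomal genes among them is not given here. The part of gene length in this block was not tested. RPL11 was at 327 ± 36.9 CPM in Hampshire and 381 ± 43.0 CPM in Pietrain in the low loin weight pigs, and its breed difference was 1.23 higher on the log2 scale in high loin weight (adjusted p = 0.00894). RPS20, of the small subunit, was at 966 ± 189 against 435 ± 32.7 CPM in high loin weight, and its difference was 1.31 (adjusted p = 0.00796). Chromatin genes followed with 9 of 24.

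Among single genes, SMYD1 was at 60.0 ± 4.55 CPM in Hampshire and 63.3 ± 18.5 CPM in Pietrain in low loin weight (log2 fold change -0.07, adjusted p = 0.838), and its breed difference differed between the loin weight groups (test of the difference, -2.37 on the log2 scale, adjusted p = 0.00251). ZBED6 was at 22.6 ± 1.47 CPM in Hampshire and 33.8 ± 10.3 CPM in Pietrain in low loin weight (log2 fold change -0.57, adjusted p = 0.0917). The difference between the comparisons was -4.11 for ZBED6 (adjusted p = 0.00251). For both genes the Hampshire pigs with high loin weight were the group that stood apart. The genes with the smallest p-values in this test also included 6 identifiers with no symbol. One of them, ENSSSCG00000028800, was at 4.03 ± 1.00 against 304 ± 99.7 CPM in the high loin weight pigs (log2 fold change -6.24, SE 0.38, adjusted p = 6.99e-05), and at 99.2 ± 7.97 CPM in Hampshire and 279 ± 162 CPM in Pietrain in low loin weight. ENSSSCG00000005927 was at 20.1 ± 5.68 against 2.15 ± 0.361 CPM and had a log2 fold change of 3.21 (adjusted p = 0.00021) in high and -0.06 (adjusted p = 0.941) in low loin weight. The tests of the high loin weight contrast and of the difference share the same 7 pigs.

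**Figure D5:**
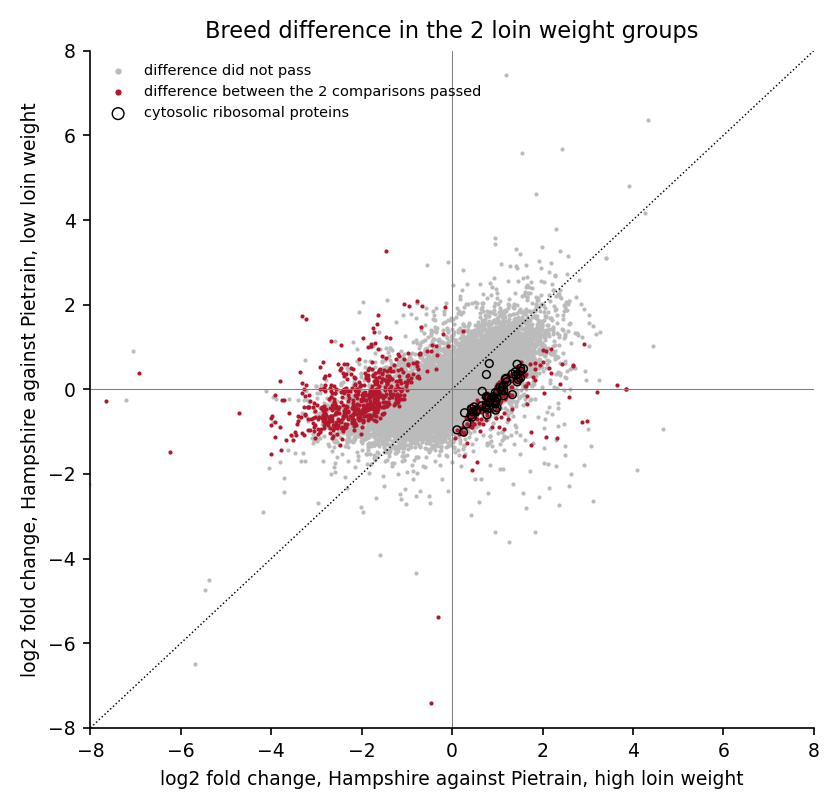
Log2 fold change of Hampshire against Pietrain for 11756 genes in high (horizontal) and low (vertical) loin weight, with genes whose breed difference differed in red and the cytosolic ribosomal proteins circled; the dotted line marks equal values and 9 genes lie outside the axes at 8. Most red points lie at the left near 0 on the vertical axis, and the circled ribosomal proteins lie right of the line.

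Last, 23 genes were counted in 1 breed only among the high loin weight pigs, with 3 counts or fewer in every pig of the other breed, at least 10 counts in every pig of the first and a mean of at least 1 CPM. They were chosen on these values, so no test is given. Of these, 17 were counted in Pietrain and 6 in Hampshire. The 6 Hampshire genes had no symbol, and ENSSSCG00000030690 had 51 to 70 counts in the high and 45 to 62 counts in the low loin weight Hampshire pigs but 0 counts in all Pietrain pigs. Against a floor of 3 counts per library, it was at least 22.9-fold higher in the Hampshire pigs with high loin weight. ZNF185, a zinc finger gene, had 23 to 89 counts in Pietrain and 0 to 2 in Hampshire within the high loin weight pigs, and 14 to 74 and 0 to 2 counts in those with low loin weight. BBX, an HMG-box transcription factor, had 13 to 40 counts in Pietrain and 0 in Hampshire pigs, at least 7.60-fold higher in Pietrain, but 8 to 20 and 11 to 19 counts in the low loin weight pigs of the 2 breeds. LCORL, a gene at a locus linked to body size in several livestock species, had 17 to 23 counts in Pietrain and 1 to 2 in Hampshire within the high loin weight pigs, and 16 to 24 against 8 to 20 counts in the low loin weight pigs. Over all 23 genes, 3 met the same rule in the low loin weight pigs, namely ZNF185, ENSSSCG00000030690 and ENSSSCG00000026270.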

How the data were processed

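Polyadenylated RNA of loin muscle was sequenced from 13 pigs with the TruSeq RNA v2 kit, which does not mark strand, so overlapping and antisense genes cannot be told apart. The authors deposited raw read counts per Ensembl gene, 1 column per pig, and their submitters' notes name FastQC, STAR, RSEM, DESeq2 and the Sscrofa10.2 assembly. From their deposited comparison tables only symbols, types and positions were read. Their fold changes, p-values and means were not used. Of 25322 identifiers, 13168 had a symbol, 11804 from an Ensembl name table and 1364 from the tables of the authors, and 9975 had a position. Of the identifiers tested, 62 held counts identical to another in all pigs, 36 of the DEGs among them, and were not merged. Positions and lengths are those of the Sscrofa10.2 tables.

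Groups were taken from the labels. Counts were fitted in edgeR 4.0.16 (limma 3.58.1, R 4.3.3) with TMM normalization, filterByExpr and the quasi-likelihood test, on the pigs of the 2 groups compared, and over all 13 pigs for the test of whether the breed difference differed. Standard errors are the log2 fold change divided by the square root of the F statistic. Single values were also tested by exact two-sided permutation of log2(CPM + 0.5). Alternatives were DESeq2 1.42.0, its size factors or upper quartile normalization in edgeR, no filter or at least 10 counts in every pig, no fold change threshold, all 13 pigs in 1 fit, removal of a lowess trend (span 0.3) of log2 CPM on gene length, and leaving out each pig. The fit was tested on simulated data. All 15 pairs of pigs within a group differed beyond sampling noise, and each replicate is a separate pig. Figures were drawn in matplotlib 3.10.9 under Python 3.11.15.

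The comparison and the 39 gene lists (820 symbols, of which 671 were tested) were chosen with earlier results of these data known. Genes were named by a rule that took, among DEGs with a symbol and no overlap of the breeds, the 8 smallest adjusted p-values and, at a mean of at least 5 CPM, the 6 largest fold changes in each direction; up to 2 DEGs per list and direction; genes known from pig muscle; the 6 genes and 2 controls of the study's real-time PCR; the 5 smallest p-values per direction for a breed difference that differed; and genes counted in 1 breed. It gave 162 genes, of which values of 120 are described. A few of the others are not reported here. Most were left out because their list is given by its counts, and several of them because their call was lost without 1 pig. No sequence was used here.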

Additional observations from a re-analysis of the deposited data

Results flagged for a closer look

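The breed difference differed between high and low loin weight for 757 genes, tested as the interaction of breed and loin weight in edgeR over all 13 pigs with Benjamini-Hochberg adjustment. The values that follow are the log2 fold change in high minus that in low loin weight, for the genes described above that passed. Among ribosomal and mitochondrial genes these were NDUFA2 (1.40), RPS20 (1.31), RPL35 (1.26), RPL11 (1.23), MRPS7 (1.13), NDUFB10 (0.96) and RPL27 (0.95). For sarcomere, filament and calcium channel genes they were SMYD1 (-2.37), CACNA2D1 (-2.46), SYNM (-1.99), CMYA5 (-1.47), TRDN (-1.43), MYPN (-1.13) and NEB (-0.97). For genes of AMPK, glucose transport and mTOR they were RHOQ (-1.95), DEPTOR (-1.92) and PRKAB2 (-1.76). The other genes above 0 were APOA1 (3.57), ENSSSCG00000005927 (3.29), SELENOM (1.87), SULT1A3 (1.66), EIF4EBP1 (1.53), TAGLN (1.38), ACTA2 (1.32), NOL3 (1.27), SGCA (1.19), RNASEK (1.10) and ECHS1 (1.03), together with a signal recognition particle RNA (3.84, the same for both of its identifiers). The other genes below 0 were ENSSSCG00000028800 (-4.74), ZBED6 (-4.11), CRYBG3 (-3.33), CLOCK (-2.76), ANKRD12 (-2.35), XIAP (-2.29), HSPH1 (-2.08), AP4E1 (-2.05), MBNL2 (-1.83), FBXO40 (-1.51), RORA (-1.40), GCLC (-1.25), XPOT (-1.18) and PSMD1 (-0.89). Most of these genes were chosen for a difference in the high loin weight pigs, which favours a difference from the low loin weight pigs, and genes chosen for counts in 1 breed are left out.

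In 7 of 120 genes checked, 1 of the 4 Pietrain pigs with high loin weight stood apart from the other 3, where chance marks about 1 in 20 such groups. Pig 6 stood apart for LDHA (20640 CPM), IMPA2 (33.9 CPM) and MYOD1 (18.1 CPM), and pig 7 for CKM (25250 CPM), XIAP (19.9 CPM) and LCORL (0.850 CPM). For CD79A it was pig 2, at 0.909 CPM against 0.700 to 0.724 CPM in the other Pietrain pigs, a small gap between low values. The groups of 3 pigs were not checked in this way.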

How the results depend on the processing

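With Hampshire against Pietrain pigs of high loin weight, the number of DEGs was 4268 to 6001 over DESeq2, other size factors, other filters on low counts, no fold change threshold, 1 fit over all 13 pigs and removal of the length trend, against 5353, and 3464 to 5693 when each pig was left out in turn. For low loin weight it was 195 to 3572 with 1 pig left out. The number of genes whose breed difference differed with loin weight was 1223 in DESeq2, 483 with the length trend removed and 379 to 1052 with 1 pig left out. The same-sign share was 76.5% over all genes in place of DEGs and 86.3 to 90.9% with 1 pig left out, and the number of genes counted in 1 breed was 7 with a limit of 0 counts and 282 with a limit of 10. GYS1 lay near 0 and changed sign, to 0.0017 in DESeq2, 0.0017 with DESeq2 size factors, 0.0080 with upper quartile normalization, 0.016 in 1 fit over all 13 pigs, 0.048 with the length trend removed and -0.17 to 0.14 with 1 pig left out. Removing the length trend also changed the sign of OAZ1 (to -0.16) and of the medians of the myostatin, BMP and IGF (0.23), mitochondrially encoded (-0.33), AMPK and glycogen (0.048), excitation-contraction coupling (0.30), fast fibre (-0.093) and immediate early lists (-0.40). With 1 pig left out, the medians of the fast fibre, immediate early, PPAR target, excitation-contraction coupling, proteasome and interferon lists also changed sign. Genes without a known length, such as PRKAG3, MSTN, SMYD1, MYPN, MYOD1, CLOCK and PPARA, were not in the run with the length trend removed. Of 111 DEGs described, 100 passed in each alternative run that held them, and 17 of the 23 lost calls came from leaving out 1 pig. Beyond what the alternative itself removes, the cause was not tested. No paired analysis was possible because the pig numbers of the high loin weight groups do not overlap and the labels tie no number to a litter, batch or day. Depth limits the genes near the floor of 3 counts, such as those counted in 1 breed.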
